A study of Drosophila melanogaster with 35 samples.

Results

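Expression of 7 genes of melanization and of the blood cells was followed across all 8 groups of arrays: the serine proteases Hayan and Sp7, the serpin Spn27A, the prophenoloxidase PPO2, and the hemocyte genes Hml, NimC1 and Pxn. They were chosen by gene symbol, with earlier results of these data known, and every probe set that carried 1 of these symbols was kept. They are 7 of the 10844 genes measured, with 8 of the 13966 probe sets tested, since PPO2 had a pair of probe sets and each other gene had 1. All 8 were tested, with no filter on low values.

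In insects, wounds and microbes set off a chain of serine proteases in the hemolymph that ends in the cleavage of prophenoloxidases to active phenoloxidases, which oxidize phenols toward melanin. Serpins trap the proteases and so limit the reaction. The blood cells of the fly are mostly plasmatocytes, which engulf microbes and dying cells and secrete clotting and matrix proteins, and in the larva a smaller class, the crystal cells, stores prophenoloxidase.

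RNA of male flies was measured on 35 Affymetrix DrosGenome1 GeneChips. The arrays came from an aging study, with young controls, hyperoxia and old flies, and a stress study, with stress controls, heat stress, sugar, hydrogen peroxide and ionizing radiation. All flies, controls included, were hybrids of Oregon-R with a transgenic stock, labelled w[1118]/+; P{w+ rtTA}(3)[E2]/+. In the aging study, young controls (n = 6) were 10 days old and old flies (n = 4) 61 days old, near the median survival of their cohort. Hyperoxia flies (n = 6) were labelled 8 days old, after 5 days in 100% oxygen from day 3, also near median survival, so that old and hyperoxia flies were the survivors of their cohorts. In the stress study, stress controls (n = 4) and heat stress flies (n = 3) were 9 days old, and the heat was 37 °C for 5.5 hours in vials with 1% sucrose. The other 3 groups (n = 4 each) were 11 days old. Irradiated flies received 5666 rads per hour for 16 hours and then spent 2 days on 1% sucrose, hydrogen peroxide flies spent 2 days on sucrose with 3% peroxide, and sugar flies spent 2 days on sucrose alone. Heat, irradiation, peroxide and sugar samples were each 1 vial of 25 flies on 1 array. The RNA came from the flies and not from sorted blood cells, and fewer cells of a type and less RNA per cell cannot be told apart.

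The values were MAS5 signal intensities. The mean over the central 96% of values was 1000.16 to 1000.21 on 31 arrays, while the 4 sugar arrays were deposited on a lower scale, with trimmed means of 107 to 167. All arrays were therefore quantile normalized, and signals below are normalized signals. Within groups, the median correlation of an array with the others was 0.934 to 0.980. The ratio of the actin 3' to 5' control probe sets, a sign of RNA quality, was 283 on old replicate 2, 7.44 on irradiation replicate 1 and 1.48 to 7.09 on the other 33 arrays. Fold changes are on the scale of log2 (signal + 38.6), the added value being the 10th percentile of all signals, and understate the change of dim probe sets. A gene was called up- or down-regulated where limma's nested F-test passed an FDR of 1% and the change was at least 1.5-fold. Old and hyperoxia flies were set against the same 6 young controls, and the 4 treatments of the stress study against the same 4 stress controls. Levels were not compared between the studies.

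The call differed from treatment to treatment. In heat stress, 6 of the 7 genes were down-regulated, where 8.06% of all genes were called down, and none was up-regulated, where 5.98% of all genes were. In hydrogen peroxide, Sp7 and Spn27A were up-regulated (background 9.00%) and PPO2, Hml and Pxn were down-regulated (background 9.74%). In ionizing radiation, Sp7 and Spn27A were up-regulated (background 7.84%) and none was down-regulated (background 8.23%). In old flies, NimC1 was up-regulated (background 5.49%) and PPO2 was down-regulated (background 9.42%). In hyperoxia, none of the 7 was called (background 3.45% up and 4.82% down), although limma's moderated test gave an unadjusted p under 0.05 for 4 of them, Sp7, Spn27A, Hml and Pxn. In sugar, none was called either (background 2.92% up and 2.19% down), with 3 at an unadjusted p under 0.05, PPO2, Sp7 and Spn27A. The median log2 fold change of the 7 genes was -0.996 in heat stress and -0.41 in hydrogen peroxide, beside 0.00478 and 0.05 over all genes.

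**Figure D1:**
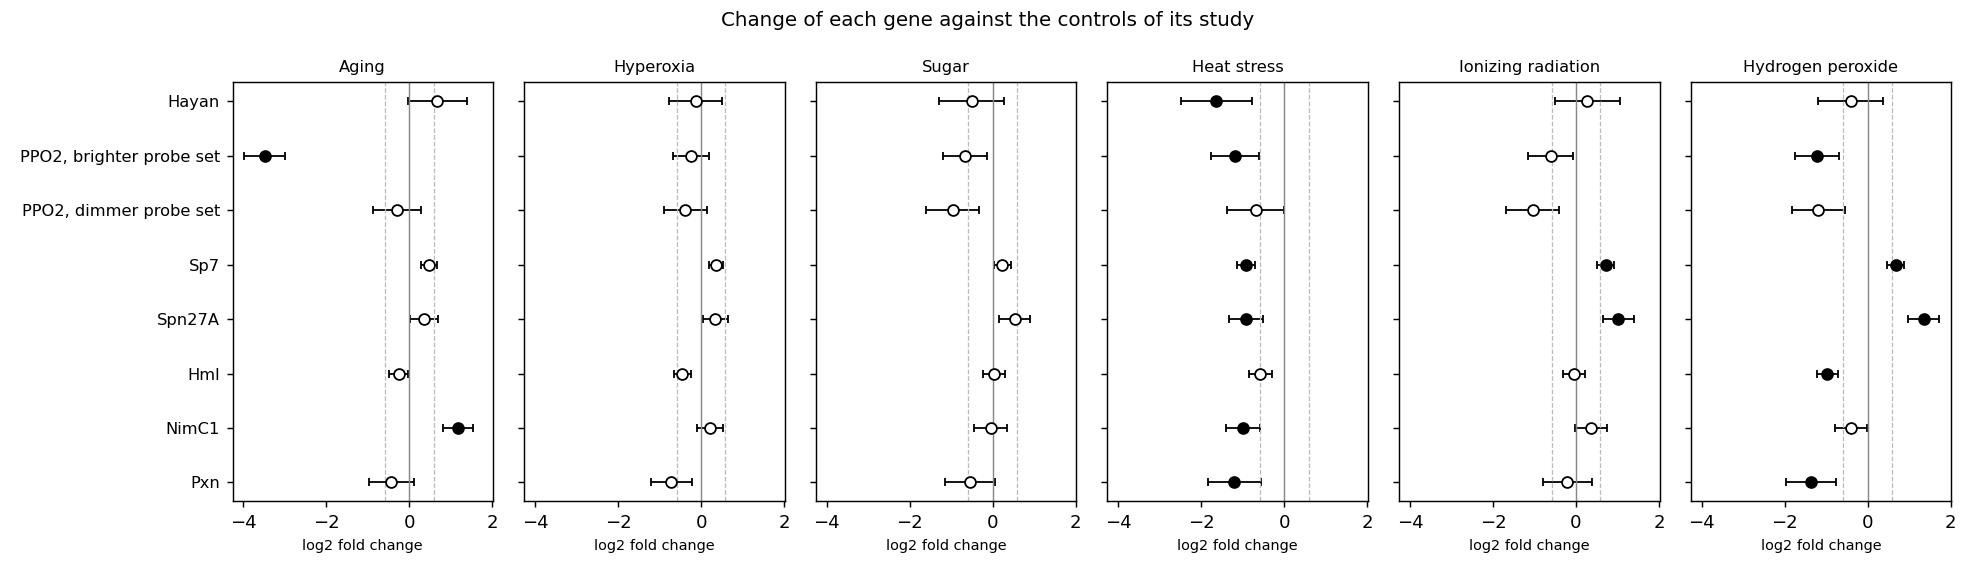
Log2 fold change of each of the 8 probe sets against the controls of its own study, with 95% intervals, in the 6 comparisons; filled points were called, open points were not, and dashed lines mark 1.5-fold. In heat stress all probe sets lie below 0, with 6 genes called, and the largest change is the fall of PPO2 in old flies at -3.49.

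Hayan, a serine protease that in Drosophila leads to prophenoloxidase activation after wounding, read 293, 232, 281 and 235 in stress controls. In heat stress it read 33.8, 40.8 and 115. All 3 heat arrays lay below all 4 controls, and replicates 1 and 2 stood at about the added value of 38.6, so that their size is uncertain. Hayan was down-regulated in heat stress by 1.63 on the log2 scale (SE 0.42, limma adjusted p = 0.00447). The call rested on replicates 1 and 2, since without replicate 1 the log2 fold change was -1.43 (adjusted p = 0.0324) and without replicate 2 it was -1.50 (adjusted p = 0.0292), neither called.

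In the other stress groups Hayan was not called. Its signals were 336, 371, 247 and 346.4 after irradiation (log2 fold change 0.27, adjusted p = 0.693) and 155, 188, 130.1 and 223 on sugar (-0.50, adjusted p = 0.477). Hydrogen peroxide arrays read 248, 210.5, 296 and 68.1, and the last of these gave the group its wide spread (-0.41, adjusted p = 0.487). All 4 sugar arrays lay below the controls, while irradiation and peroxide arrays overlapped them. Young controls ranged from 52.0 to 321 with a median of 255, hyperoxia flies from 61.6 to 313 with a median of 189, and old flies read 498, 399, 258 and 207. The old flies overlapped the young ones and the log2 fold change was 0.67 (SE 0.35, adjusted p = 0.180). Ordered by mean log2 signal in the stress study, Hayan rose from heat through sugar, hydrogen peroxide and stress controls to irradiation. No neighbours in this order differed past the threshold. Here and for the genes below, neighbours in the order are close by its making. A lack of calls between them does not show that the groups were alike.

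Sp7, a serine protease that activates prophenoloxidases further down the chain, moved opposite ways in heat and in the other stresses. Stress controls read 872, 829.7, 865 and 778. Heat stress arrays read 472, 403 and 393, all below every control. Irradiated flies read 1422, 1359.7, 1303 and 1495, and hydrogen peroxide flies 1299, 1429, 1113 and 1631, all above every control. Sp7 was thus down-regulated in heat by 0.93 (SE 0.11, adjusted p = 1.27e-07) and up-regulated by 0.71 after irradiation (SE 0.10, adjusted p = 1.69e-06) and by 0.67 in hydrogen peroxide (SE 0.10, adjusted p = 3.48e-06). Sugar flies read 1030.2, 979, 1034 and 905, above all controls, but the difference of 0.23 was not called (adjusted p = 0.165). In the order heat, stress controls, sugar, hydrogen peroxide, irradiation, only heat and stress controls differed past both limits.

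Sp7 also separated the groups of the aging study without passing the fold limit. Young controls ranged from 977 to 1226 with a median of 1029.5. Hyperoxia flies ranged from 1291 to 1555 with a median of 1314, and old flies read 1486, 1512, 1370.5 and 1543. No hyperoxia or old array overlapped the young ones. The log2 fold changes of 0.37 (SE 0.08, adjusted p = 0.00172) and 0.47 (SE 0.09, adjusted p = 0.000237) were under 1.5-fold, and old and hyperoxia flies differed by 0.10 (95% interval -0.09 to 0.29).

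Spn27A, a serpin that restrains melanization and Toll activation, followed Sp7. Stress controls read 791, 612, 891 and 706. Heat stress arrays read 278, 413 and 448, and hydrogen peroxide arrays 1917, 1906, 1873 and 2144. Irradiated flies read 2217, 1284, 1423 and 1398. The heat arrays lay below every control, and the peroxide and irradiation arrays above every control, with irradiation replicate 1 well over the other 3 (log2 fold change 0.84 without it, adjusted p = 0.000744). Spn27A was down-regulated in heat by 0.93 (SE 0.20, adjusted p = 0.000835), a call that was lost when only heat and stress control arrays were fitted (adjusted p = 0.0135). It was up-regulated by 1.35 in hydrogen peroxide (2.55-fold, SE 0.18, adjusted p = 6.06e-07) and by 1.02 after irradiation (2.02-fold, SE 0.18, adjusted p = 6.45e-05).

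On sugar alone, Spn27A read 1194, 988, 1176 and 1027, again above every control, and the log2 fold change of 0.53 was not called (adjusted p = 0.0625). Ordered from heat through stress controls, sugar and irradiation to hydrogen peroxide, heat differed from stress controls, and no other neighbours differed past the threshold. In the aging study, young controls ranged from 673 to 1184 (median 905), hyperoxia flies from 959 to 1374 (median 1132), and old flies read 1621, 977, 1010.5 and 1103. Both groups overlapped the young controls, with log2 fold changes of 0.35 in each (adjusted p = 0.131 in old flies and 0.129 in hyperoxia).

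**Figure D2:**
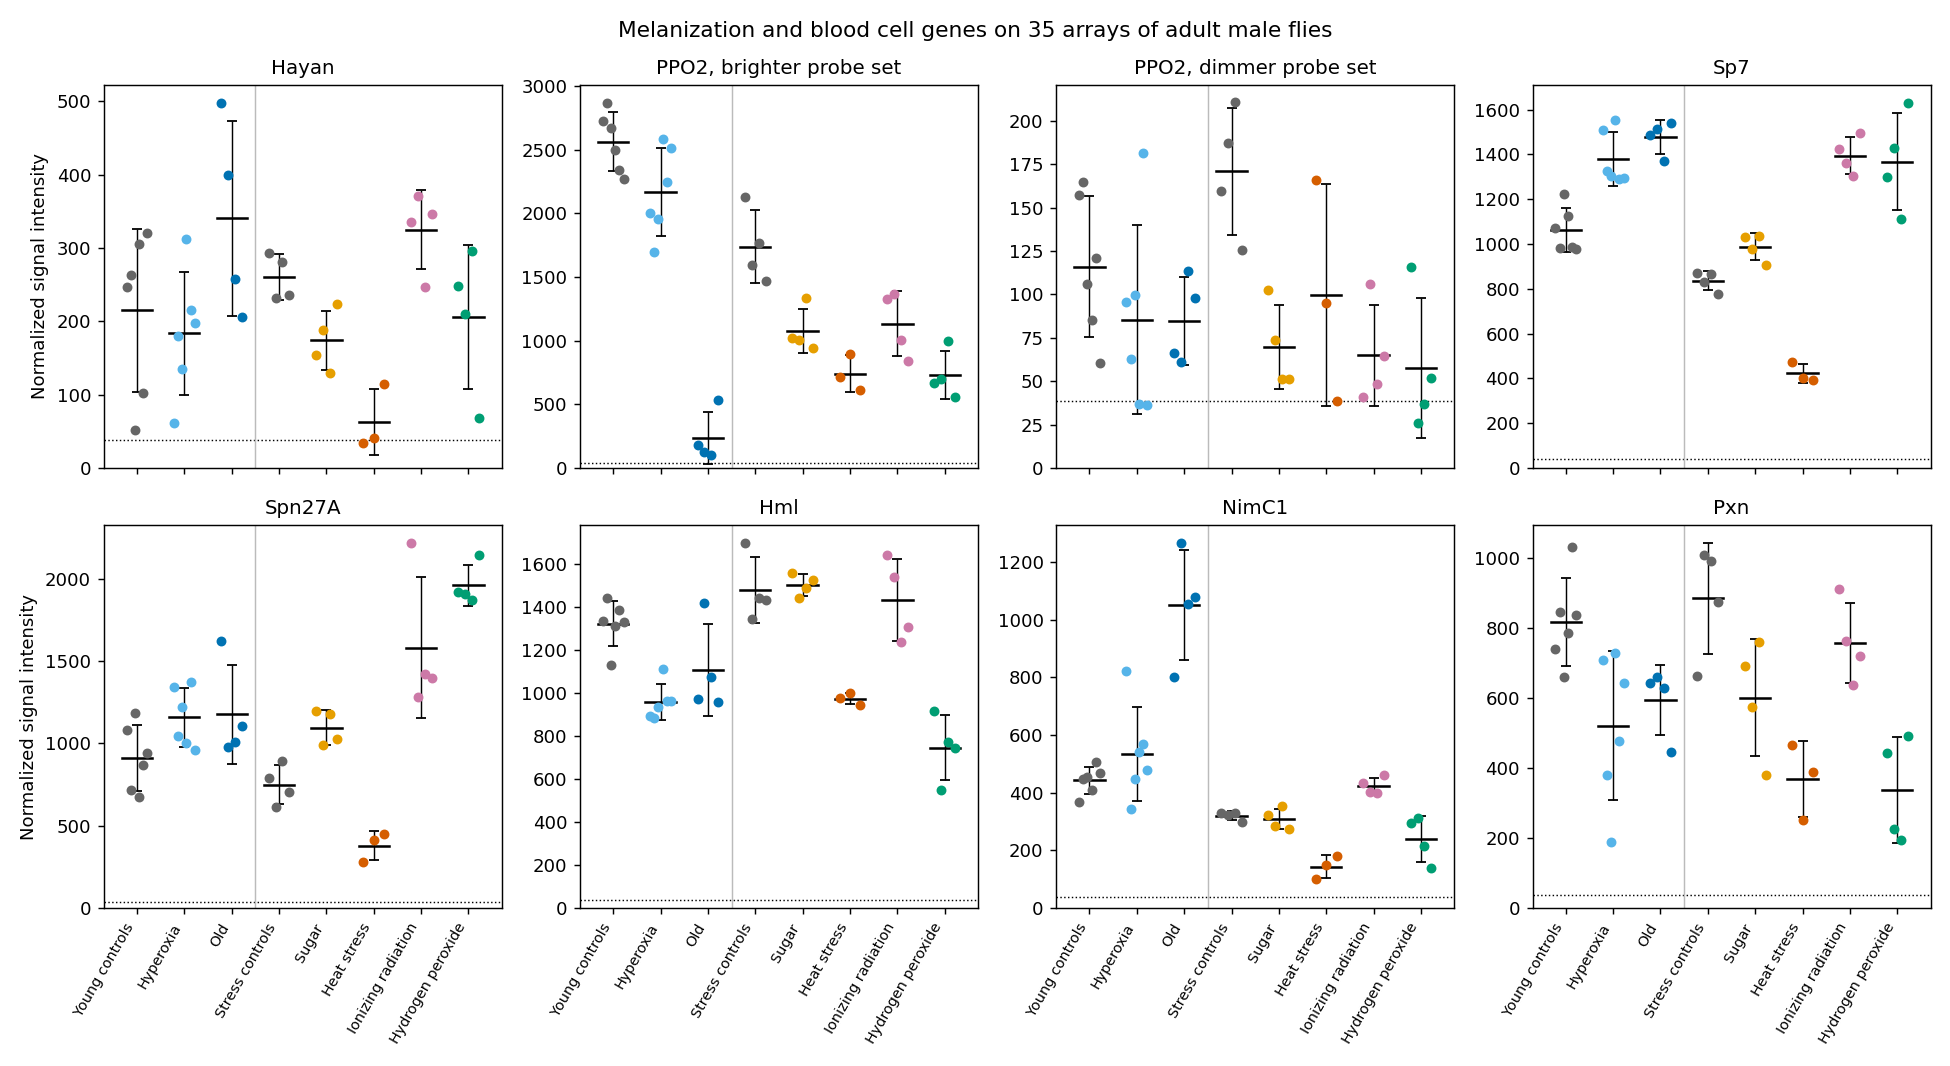
Normalized signal (linear axis) of each probe set on each of the 35 arrays, by group, with the group mean and SD as bars and the added value of 38.6 as a dotted line. Within the stress study, Sp7 and Spn27A sit lowest in heat stress and highest in irradiated or peroxide-fed flies, and the brighter PPO2 probe set falls from 2272 to 2867 in young flies to 99.7 to 536 in old flies.

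PPO2, a prophenoloxidase stored in the crystal cells of larvae, showed the largest change of the 7 genes. The brighter of its probe sets, which stands for the gene, ranged from 2272 to 2867 in young controls with a median of 2585. Old flies read 178, 127, 99.7 and 536. Every old array was far below every young one, with replicate 4 the highest of the old. PPO2 was down-regulated in old flies, with a log2 fold change of -3.49, that is 11.2-fold (SE 0.24, 95% interval -3.98 to -3.00, adjusted p = 1.89e-12). Without old replicate 2, the array with the actin ratio of 283, it was -3.32 (adjusted p = 4.52e-11). Hyperoxia flies ranged from 1695 to 2583 with a median of 2126 and overlapped the young controls (-0.25, adjusted p = 0.528). The direct difference of old from hyperoxia flies was -3.24 (SE 0.24, adjusted p = 7.79e-12), in a comparison that called 9.41% of all genes down and 5.39% up.

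In the stress study PPO2 was highest in the stress controls, which read 2126, 1592, 1766 and 1471. Heat stress arrays read 715, 896 and 613, and hydrogen peroxide arrays 669, 699.7, 996 and 557. Both groups lay below every control, and PPO2 was down-regulated by 1.19 in heat (SE 0.28, adjusted p = 0.00237) and by 1.23 in hydrogen peroxide (SE 0.26, adjusted p = 0.00046). Irradiated flies read 1326, 1366, 1004 and 843, and sugar flies 1025, 1006, 1334 and 946. These arrays were also all below the controls, but the log2 fold changes of -0.61 (adjusted p = 0.0947) and -0.67 (adjusted p = 0.105) were not called. Irradiated and sugar flies differed from each other by 0.06 (95% interval -0.48 to 0.59). In the order hydrogen peroxide, heat, sugar, irradiation, stress controls, no neighbours differed past the threshold, and peroxide differed from sugar by -0.56 (95% interval -1.09 to -0.02, adjusted p = 0.123).

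The dimmer probe set of PPO2 gave another picture in old flies. Its stress controls read 159, 188, 211 and 126, and its young controls 60.7 to 165 with a median of 114. Old flies read 66.2, 61.3, 114 and 98.1, overlapping the young ones, and the log2 fold change was -0.30 (adjusted p = 0.497), against -3.49 on the brighter probe set. Over the 35 arrays the correlation between the pair was 0.14 (log2 values centred on the controls of each study). In the stress study the dimmer probe set read 40.7, 106, 48.6 and 64.4 after irradiation (-1.04, adjusted p = 0.0129), 116, 26.04, 36.8 and 51.9 in hydrogen peroxide (-1.19, adjusted p = 0.00365), and 166, 95.1 and 38.4 in heat (-0.69, adjusted p = 0.162). Sugar flies read 103, 73.9, 51.5 and 51.3 (-0.96, adjusted p = 0.0472). All of these groups were lower than the stress controls on average, as they were on the brighter probe set. On the dimmer probe set heat overlapped the controls, and no group was called by the nested F-test.

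The hemocyte genes Hml, Pxn and NimC1 all lay below the controls in heat, and of these NimC1 alone was called in old flies. Hml, or hemolectin, a large secreted clotting protein and a marker of plasmatocytes, read 1697, 1343, 1441 and 1431 in stress controls. Hydrogen peroxide arrays read 916, 551, 773 and 742, all below every control. Hml was down-regulated there by 0.97 (1.96-fold, SE 0.13, adjusted p = 2.96e-07). Heat stress arrays read 978, 999 and 946, also below every control. Its heat difference of -0.58 passed the test (SE 0.14, adjusted p = 0.00223) and fell just short of 1.5-fold, which is 0.585 on this scale. Irradiated flies read 1643, 1539.8, 1236 and 1307 (-0.05, 95% interval -0.31 to 0.21), and sugar flies 1558, 1441, 1488 and 1523 (0.03, 95% interval -0.23 to 0.29), both overlapping the controls. In the order hydrogen peroxide, heat, irradiation, stress controls, sugar, no neighbours were called, heat and irradiation differing by -0.53 (adjusted p = 0.0033) without reaching 1.5-fold.

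In the aging study, Hml in young controls ranged from 1129 to 1441 with a median of 1334, and in hyperoxia flies from 886 to 1113 with a median of 949. The groups did not overlap, and the log2 fold change of -0.45 (SE 0.10, adjusted p = 0.00200) was under 1.5-fold. Old flies read 974, 1419, 1076 and 959.7. Replicate 2 lay among the young controls, and the difference was -0.26 with it (adjusted p = 0.101) and -0.38 without it (adjusted p = 0.0139), not called in either case.

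Pxn, or peroxidasin, a peroxidase of the extracellular matrix secreted by hemocytes, read 662, 1008, 990.4 and 873 in stress controls. Heat stress arrays read 466, 251 and 387, and hydrogen peroxide arrays 442, 225, 193 and 491. Both groups lay below every control. Pxn was down-regulated in both, with log2 fold changes of -1.37 in hydrogen peroxide (2.58-fold, SE 0.29, adjusted p = 0.000459) and -1.20 in heat (SE 0.32, adjusted p = 0.00578). Without heat replicate 2, the lowest, the heat difference was -0.97 and no longer called (adjusted p = 0.0595). Irradiated flies read 909, 763, 637 and 718 (-0.21, adjusted p = 0.698), and sugar flies 691, 573, 760.0 and 379 (-0.55, adjusted p = 0.263), both overlapping the controls. From hydrogen peroxide through heat, sugar and irradiation to stress controls, no neighbours differed past the threshold.

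Hyperoxia flies ranged widely in Pxn, from 188 to 728 with a median of 559, against 660.4 to 1030.2 (median 809.7) in young controls. The groups overlapped, and the log2 fold change of -0.71 (SE 0.24, adjusted p = 0.0386) was not called at an FDR of 1%. It was called when Young controls replicate 3 or Hyperoxia replicate 1, 4 or 6 was left out, with -0.77 to -0.83. Old flies read 641, 660.0, 629 and 447, all below the young controls, and the difference of -0.44 was not called (adjusted p = 0.263).

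NimC1, a phagocytosis receptor on plasmatocytes, was the only 1 of the 7 up-regulated in old flies. Young controls ranged from 369 to 507 with a median of 452. Old flies read 801, 1267, 1054 and 1079, all above every young control. NimC1 was up-regulated by 1.17 on the log2 scale, that is 2.24-fold (SE 0.17, 95% interval 0.81 to 1.52, adjusted p = 4.49e-06), and by 1.07 without old replicate 2 (adjusted p = 6.74e-05). Hyperoxia flies ranged from 343 to 823 with a median of 510.3 and overlapped both groups (0.21, adjusted p = 0.443). The direct difference of old from hyperoxia flies was 0.95 (SE 0.17, adjusted p = 7.70e-05). That call was lost when only those groups were fitted (adjusted p = 0.0101).

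In the stress study NimC1 was nearly constant among stress controls, at 329.6, 323, 329 and 297. Heat stress arrays read 102, 149.5 and 180.0, all below every control, and NimC1 was down-regulated by 1.00 (SE 0.21, adjusted p = 0.000581). Irradiated flies read 435, 404, 399.7 and 460.0, all above every control, with a difference of 0.37 that was not called (adjusted p = 0.184). Hydrogen peroxide flies read 297, 312, 217 and 139 (-0.41, adjusted p = 0.116), and sugar flies 323, 284, 353 and 276 (-0.05, adjusted p = 0.926), both overlapping the controls. In the order heat, hydrogen peroxide, sugar, stress controls, irradiation, no neighbours were called, heat and peroxide differing by -0.59 (adjusted p = 0.0337).

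Direct comparisons of the treatments tested where the 7 genes responded unequally. Irradiated and peroxide-fed flies shared age and sucrose vials with the sugar flies. The sugar arrays differed from the others in deposited scale, and their actin 3' to 5' ratios were 2.65 to 3.51. Those ratios were 1.48 to 1.99 in stress controls, 1.68 to 1.99 in heat and 1.88 to 2.34 in hydrogen peroxide. In irradiation they were 1.79 to 1.89, with 7.44 on replicate 1. In any comparison with sugar, the treatment cannot be told apart from this difference between arrays. Against sugar, no gene was called in irradiated flies (background 6.28% up and 8.18% down by limma's moderated test, with 3 of the 7, Sp7, Spn27A and NimC1, at an unadjusted p under 0.05). Sp7 was higher by 0.48 there (95% interval 0.28 to 0.69, adjusted p = 0.000497), under 1.5-fold, and Spn27A by 0.48 (95% interval 0.11 to 0.86, adjusted p = 0.0539). Against sugar, hydrogen peroxide up-regulated Spn27A by 0.82 (adjusted p = 0.000942, background 6.49%) and down-regulated Hml by 1.00 (adjusted p = 2.23e-07, background 9.12%). Sp7 was 0.44 higher than on sugar (adjusted p = 0.00114), under 1.5-fold, and Pxn -0.82 (adjusted p = 0.0377).

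Hydrogen peroxide and irradiation parted on the hemocyte genes. Hml, NimC1 and Pxn were lower in peroxide than in irradiated flies, by 0.92, 0.77 and 1.16 (adjusted p = 2.70e-06, 0.00381 and 0.00445), where 4.93% of all genes were called down and 4.94% up. When only these groups were fitted the 3 calls were lost (adjusted p = 0.0132, 0.0487 and 0.0298), and NimC1 or Pxn was lost when any of 6 single arrays was left out. Sp7 and Spn27A were not called between these treatments, with differences of -0.04 (95% interval -0.25 to 0.17) and 0.34 (95% interval -0.04 to 0.71).

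Sp7 and Spn27A were lower in heat than in each other treatment. Against irradiation, heat had lower Hayan, Sp7, Spn27A and NimC1, by 1.91, 1.64, 1.94 and 1.36 (background 9.93% down and 9.21% up). Against hydrogen peroxide, Sp7 and Spn27A were lower, with log2 differences of -1.599 and -2.28 (background 9.09% down and 7.38% up). Against sugar, Sp7, Spn27A, Hml and NimC1 were lower by 1.15, 1.46, 0.61 and 0.95 (background 8.97% down and 6.31% up). In that comparison heat flies were 9 days old and sugar flies 11 days old, and time in the vials also differed. Hml was not called there with trimmed-mean scaling (-0.56) or with the 25th percentile added (-0.57), and NimC1 was not called without heat replicate 1 (-0.77, adjusted p = 0.0139). The brighter PPO2 probe set did not separate heat from hydrogen peroxide (0.03, 95% interval -0.54 to 0.61).

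**Figure D3:**
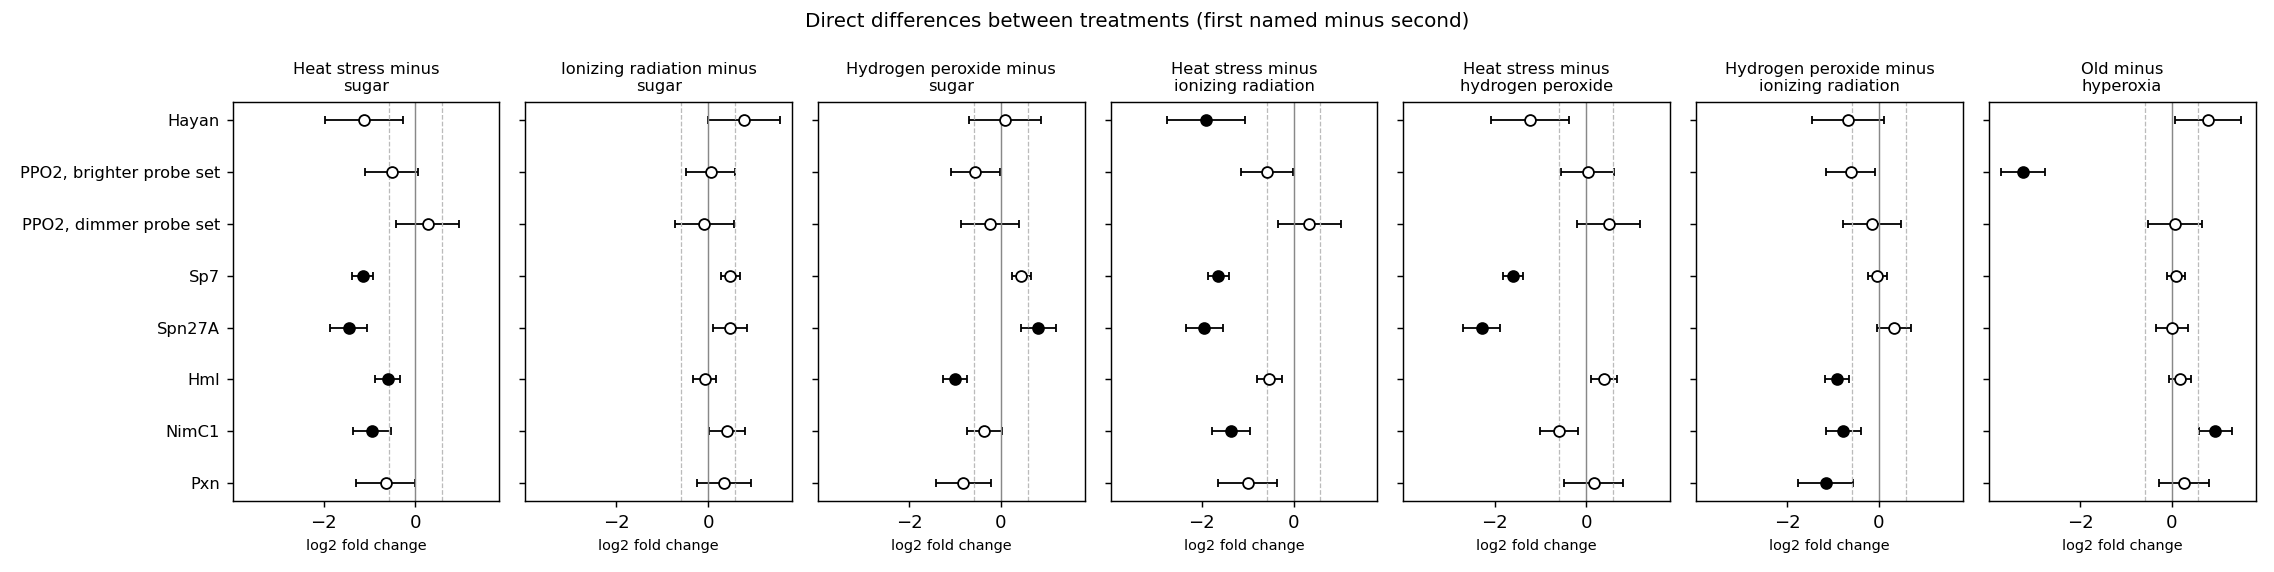
Log2 differences between pairs of treatments for each of the 8 probe sets, with 95% intervals; filled points were called by the moderated test at an FDR of 1% and 1.5-fold, open points were not, and dashed lines mark 1.5-fold. Sp7 and Spn27A are called lower in heat than in irradiation, hydrogen peroxide and sugar, and PPO2 is called lower in old than in hyperoxia flies at -3.24.

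Other genes of the same roles were followed in lists drawn up by role. As background, the shares of all genes called down were 9.42% in old flies, 4.82% in hyperoxia and 8.06% in heat. They were 8.23% in irradiation, 9.74% in hydrogen peroxide and 2.19% in sugar. The shares called up were, in the same order, 5.49%, 3.45%, 5.98%, 7.84%, 9.00% and 2.92%. Among 12 measured genes of the serine protease family in melanization and Toll signaling, 7 were down-regulated in heat. The list median was -0.94 beside 0.00478 over all genes. Besides Hayan and Sp7 these included sphe (-1.66, adjusted p = 2.44e-08), SPE, the protease that cleaves the Toll ligand (-1.47, adjusted p = 6.89e-06), and CG3505 (-1.19, adjusted p = 5.83e-06). In ionizing radiation and in hydrogen peroxide, 2 were up- and 3 down-regulated in each. The falls in irradiation and in hydrogen peroxide were of sphinx1 (-1.67 and -1.34), SPE (-1.47 and -1.07) and sphe (-0.86 and -1.04), while Sp7 and CG3505 (0.64 and 0.95) rose in both. Old flies had 1 up-regulated, CG3505 (0.76, adjusted p = 0.000202), hyperoxia flies 2 down-regulated, SPE (-0.64) and sphinx1 (-0.79), and sugar flies none, with 3 of the 12 at an unadjusted p under 0.05 in limma's moderated test.

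Among 23 measured serpins, Spn27A included, the counts were split. In hydrogen peroxide 6 were up- and 6 down-regulated. Spn88Eb rose by 3.74 (adjusted p = 4.99e-18), from a mean of 719.7 in stress controls to 10166, while Spn28F fell by 3.42 and Spn38F by 3.02. Irradiation gave 5 up and 6 down, with Spn88Eb up by 2.85 and Spn28F at -3.83, its mean signal there of 37.3 lying under the added value. Heat gave 2 up and 5 down, among them Spn77Ba, a serpin that restrains melanization in the airways (-1.08, adjusted p = 1.51e-06), and Spn28Dc rose there (1.07). Old flies had 4 up, Spn88Eb (1.29), Spn88Ea (0.98) and Spn28Dc (0.89) among them, and 2 down. Hyperoxia had 1 up and 5 down, and sugar 0 up and 3 down, Spn28F, Spn38F and Acp76A, a serpin of the accessory gland. The accessory gland markers moved in the same samples. All 8 of that list were down-regulated in irradiation and in hydrogen peroxide, its summed signal being 31774 to 35202 and 24355 to 36795 against 97936 to 108431 in stress controls. The part of the accessory gland in the serpin counts was not tested.

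PPO1, the other prophenoloxidase of larval crystal cells, was down-regulated wherever PPO2 was. It fell by 2.24 in old flies (adjusted p = 6.94e-11), by 1.39 in heat (adjusted p = 1.24e-05) and by 1.49 in hydrogen peroxide (adjusted p = 5.37e-07). It also fell by 1.22 after irradiation (adjusted p = 1.56e-05), where PPO2 was not called. In sugar and hyperoxia PPO1 was not called (-0.09 and -0.17). The remaining crystal cell genes of the list, the transcription factors lz and peb, were not called in any of the 6 comparisons, the smallest unadjusted p of limma's moderated test being 0.0628 for lz in heat, with lz at a mean signal of 86.1 over all arrays.

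Of 14 measured genes of prophenoloxidases and melanin synthesis, 3 were down-regulated in old flies, 3 in hyperoxia, 5 in heat, 5 in irradiation and 6 in hydrogen peroxide, and the only one up-regulated in any comparison was Pu in sugar (0.85), which was down-regulated in hydrogen peroxide (-1.24, adjusted p = 2.98e-06) and in heat (-0.61). Pu makes the precursor of a cofactor used in dopamine synthesis. Besides PPO2 and PPO1, yellow-e was down-regulated in 5 of the 6 comparisons, with log2 fold changes of -3.79 in hydrogen peroxide, where its mean of 28.1 lay under the added value, -3.44 after irradiation, -2.85 in heat, -2.12 in hyperoxia and -0.91 in old flies. Ddc, which makes dopamine, fell by 0.65 in heat, and ple, which makes its precursor, fell by 1.00 in hyperoxia. Of 3 measured recognition genes, 2 were down-regulated in heat, GNBP2 (-1.30, adjusted p = 0.000711) and PGRP-LE (-0.72, adjusted p = 0.00189), and GNBP2 rose after irradiation (0.74). GNBP3, a sensor of fungal glucans, fell by 1.42 in irradiation and 2.02 in hydrogen peroxide and rose by 0.62 in old flies, and the only one of 5 lamellocyte genes called was msn, up by 0.86 in old flies.

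Among 22 measured genes of plasmatocytes and phagocytosis, 6 were up-regulated in old flies and 0 down-regulated (list median 0.48, all genes 0.03). They included NimB1 (1.59, adjusted p = 6.25e-06), Tep3 (1.08) and the scavenger receptor crq (0.70) beside NimC1. In heat, 4 were down-regulated and 0 up-regulated, namely NimB2 (-1.26, adjusted p = 2.61e-09), Pxn, NimC1 and NimB4 (-0.87). Irradiation gave 7 up and 0 down, led by NimC4 (2.21, with stress controls under the added value), NimB1 (1.30), NimB5 (1.28) and the engulfment receptor drpr (1.22). In hydrogen peroxide NimB1 (1.22), NimB5 (1.10) and drpr (1.00) rose while Pxn and Hml fell. Hyperoxia gave 3 up and 1 down, and sugar 1 up, srp, a GATA factor of blood cells and fat body (0.76).

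Of 7 measured clotting genes, fon, a clot protein, and Idgf3 rose in old flies (1.20 and 0.69) and fell in heat (-0.61 and -0.71), and both rose after irradiation (0.95 and 0.94), where apolpp (-1.18) and Lsp2 (-1.25) fell. In hydrogen peroxide fon rose by 0.83, while Hml, apolpp (-2.69) and Lsp2 (-1.19) fell. Lsp2 and apolpp also fell in hyperoxia (-2.24 and -1.004), and Lsp2 in sugar (-2.75). Of 11 basement membrane genes, the setting in which Pxn protein works, none was called in old flies, where limma's moderated test gave 2 an unadjusted p under 0.05. In hydrogen peroxide Pxn and Ppn (-0.59) fell and Mp (1.01) rose, in heat Pxn and Ppn (-1.08) fell, and in hyperoxia vkg, a chain of collagen IV, fell (-0.75). After irradiation Ndg rose (1.42) and trol fell (-1.03), and in sugar Mp rose (0.79).

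**Figure D4:**
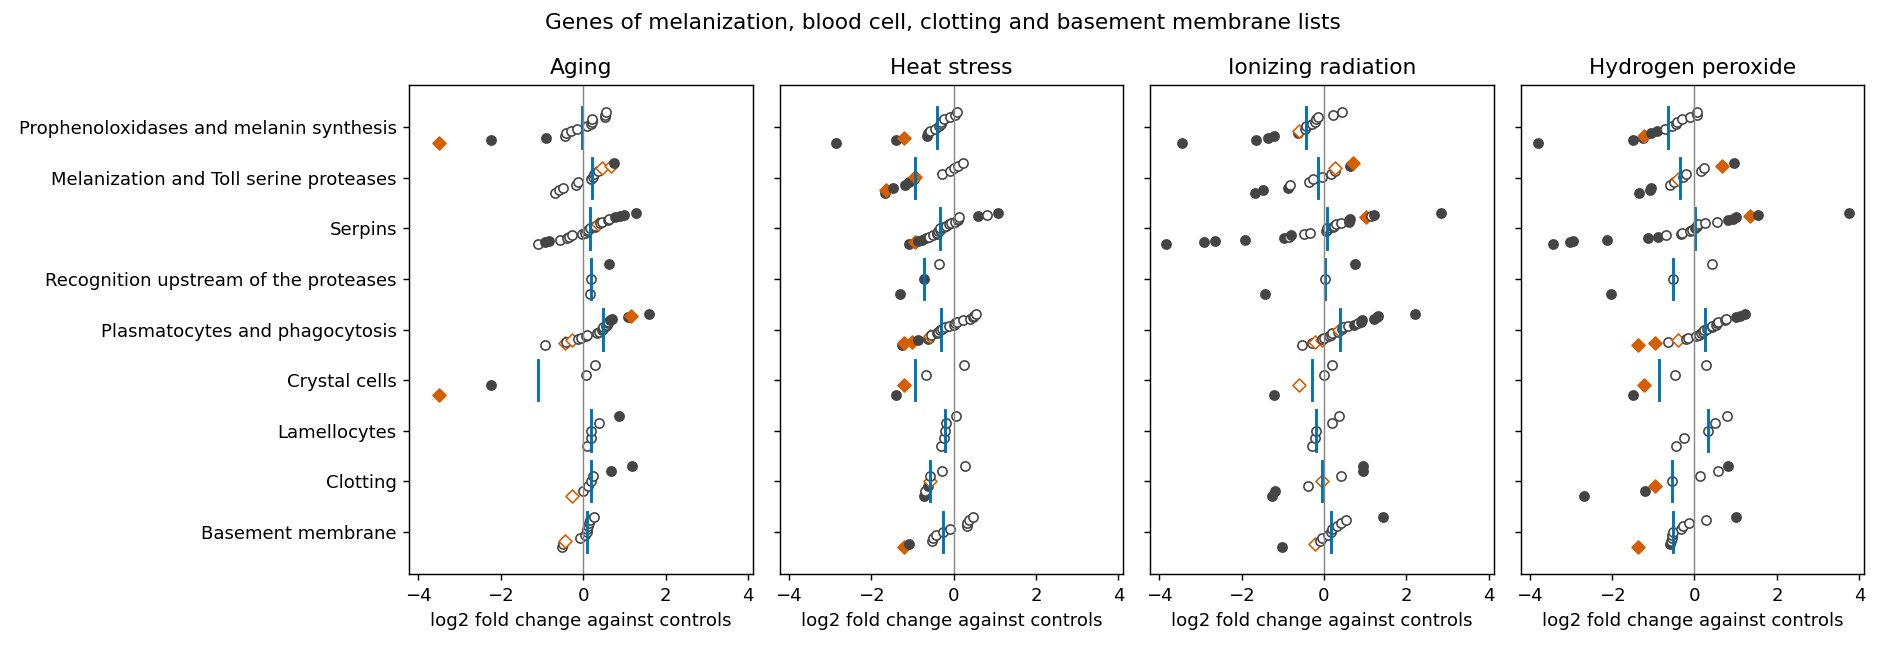
Log2 fold changes of the measured genes of each list in old flies, heat stress, ionizing radiation and hydrogen peroxide; diamonds are the 7 genes described here, circles the other genes, filled where called, and lines mark list medians. The protease list has its median at -0.94 in heat, and the plasmatocyte list at 0.48 in old flies.

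Markers of hemocytes were measured for 11 of 12 genes, 5 of which were Hml, NimC1, Pxn, PPO1 and PPO2. Their summed signal was 8397 to 9606 in heat and 10772 to 11816 in hydrogen peroxide, against 11639 to 13813 in stress controls, and 13010 to 15468 after irradiation. In the aging study it was 15986 to 18795 in young controls, 14571 to 17603 in old flies and 13961 to 17129 in hyperoxia. Only lz stood below 38.6 on average, in heat. In heat 4 of the 11 were down-regulated, NimC1, Pxn, PPO1 and PPO2, and 0 up-regulated. In hydrogen peroxide 4 were down-regulated, Hml, Pxn, PPO1 and PPO2, and 0 up-regulated. All of these are among the 5 genes named above, so both counts repeat calls already given. The sums hold these 5 genes too, so a lower sum is not separate from those calls. In hydrogen peroxide the mean fell from 1739 to 730 for PPO2 and from 1478 to 745 for Hml. It fell from 1096 to 375 for PPO1 and from 883 to 338 for Pxn. The remaining hemocyte markers were not summed apart. In old flies 3 were up-regulated, NimC1, crq and srp, and 2 down-regulated, PPO1 and PPO2. Fat body, which makes many hemolymph proteases and serpins, had 9 of 10 markers measured, summing to 38469 to 48284 in heat and 19094 to 27389 in hydrogen peroxide against 47387 to 55239 in stress controls. In heat 1 of the 9 was up-regulated, bmm, and 1 down-regulated, Lsd-1. In hydrogen peroxide bmm was up-regulated and 4 were down-regulated, apolpp, Lsp2, Lsd-1 and FASN1. Of these, apolpp fell from a mean of 22306 in stress controls to 3524. Midgut markers, 6 of 8, summed to 71651 to 83149 in heat and 46075 to 78062 in hydrogen peroxide against 197366 to 228913, and all 6 were down-regulated in both. The part of any tissue in the changes of the 7 genes was not tested.

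Over the 35 arrays, with log2 values centred on the controls of each study, Sp7 and Spn27A correlated at 0.85, Hml and Pxn at 0.73 and Hayan and NimC1 at 0.62. These are descriptions, since arrays of a group share their treatment. Of 10470 genes with a mean signal over the added value, the 3 closest to Sp7 were NimB2 (r = 0.93), BomS5 and CtsB, and those closest to Spn27A were Adgf-D (0.91), MtnA and Pfrx. Closest to PPO2 were Obp44a (0.84), ND-B8 and levy, to NimC1 CG4250 (0.86), CG6429 and Cyp6a13, and to Hml CG42249 (0.90), CG6484 and CG9928. Pxn and Hayan had weaker nearest genes, OstDelta (0.75), CG4020 and regucalcin for Pxn and Prosalpha6 (0.75), CG8031 and nebu for Hayan.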

How the data were processed

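The deposited values were linear MAS5 signal intensities of 14010 probe sets, of which 31 arrays had been scaled alike by the authors, to 1 trimmed mean, and the 4 sugar arrays stood lower. The version of MAS5 and the genome build are not given in the sources used here. Arrays were quantile normalized, the 10th percentile (38.6) was added and log2 was taken, in R 4.3.3 with limma 3.58.1. After 44 control probe sets were left out, 13966 were tested. Of these, 12443 matched 1 gene, 327 several and 1196 none in the platform table, and 12394 symbols were updated. Each of 10844 genes was represented by its brightest probe set on average. The fit had 8 group means and 27 residual degrees of freedom (30.2 moderated). Calls against controls used the nested F-test over 6 comparisons at an FDR of 1%, and 7 direct comparisons the moderated test, all with 1.5-fold. The nested F-test holds its FDR per gene and not within a comparison, so a called gene may have a larger adjusted p. Adjusted p-values are limma's, by Benjamini and Hochberg, over all probe sets tested within a comparison. The fit was tested on simulated data.

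The 7 genes, lists and markers were chosen with earlier results of these data known. All probe sets of the 7 genes were named. The rule fixed for naming picked from each list up to 4 called genes a comparison with the largest fold changes. Not all of these were named. Among those left out were t (-1.64) and speck (-1.36) in irradiation, and NimC2 (-1.15) and Sr-CII (1.05) in hyperoxia. PPO1, lz and peb in every comparison, CG3505 in irradiation and Pu in heat were named after their values were seen. From marker lists, sums and counts are given, with called hemocyte and fat body markers of some comparisons named after their values were seen. For likeness, the 3 genes with the highest correlation were named. Replicates are separate vials or fly groups. Alternatives were a replicate block, trimmed-mean scaling, the 25th percentile as the added value, low probe sets left out, only the 2 groups compared, the moderated test, an FDR of 5% and each array left out in turn. The number of arrays limits the precision.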

Additional observations from a re-analysis of the deposited data

Results flagged for a closer look

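In groups of 4 to 10 arrays, 2 of 56 sets of signals of the 8 probe sets held an array far from the others, where chance alone gives about 1 in 20. Hml on hyperoxia replicate 4 had a signal of 1113, with the other 5 hyperoxia arrays at 886 to 964, a gap of 0.627 of the range on the log2 scale. Pxn on old replicate 4 had a signal of 447, with the other 3 old arrays at 629 to 660.0, a gap of 0.876 of the range.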

How the results depend on the processing

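The counts of the 7 genes called in old flies (2), ionizing radiation (2) and hydrogen peroxide (5) were the same in every alternative run, and in heat stress (6) the count was 5 with only the 2 groups compared and ran from 5 to 7 with 1 array left out. In hyperoxia the count of 0 became 1, Pxn, with trimmed-mean scaling, with the 25th percentile added, with low probe sets left out and at an FDR of 5%, and 0 to 1 with 1 array left out. In sugar it became 1, PPO2, at an FDR of 5%, and 0 to 1 with 1 array left out, Spn27A being called without Stress controls replicate 3. Direct comparisons gave 17 calls, 13 with only the 2 groups compared, 22 at an FDR of 5% and 15 to 18 with 1 array left out. Over all genes, calls in heat fell from 1523 to 925 with only the 2 groups compared, and in sugar from 554 to 338 with the moderated test. No called direction was reversed. Among the fold changes against controls that were not called, the sign changed in 5 cases with 1 array left out and in 1 with trimmed-mean scaling. The cause of these differences was not tested. Replicate numbers do not pair the samples, the mean residual correlation of equal numbers being -0.06 to 0.02 over 13 pairs of groups. The replicate block moved the calls over all genes in old flies from 1616 to 1598 and changed no call of the 7 genes, with the dimmer PPO2 probe set in hydrogen peroxide called (-1.19, adjusted p = 0.00165). Signals near the added value of 38.6 (Hayan in heat, the dimmer PPO2 probe set) limit the size of their fold changes.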
